A study of Homo sapiens with 6 samples.

Results

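DNA damage repair genes were followed by bulk RNA sequencing in NCI-H1975 cells, an established line from a human lung adenocarcinoma. The set was a list of 50 gene symbols, and each symbol matched 1 Ensembl identifier among the 60960 features of the deposited table. The samples form 2 groups of 3 libraries. One group carries the treatment label siGFPT2, a small interfering RNA against the hexosamine pathway enzyme GFPT2, and the other carries siNC, a control small interfering RNA. The comparison was made, per the design text, to look for differentially expressed genes. Per the labels' protocols, RNA came from TRIzol extracts, was enriched for poly(A) with oligo(dT) beads and was read from both ends. Almonertinib, EGF and a knockdown of EGFR also appear in that text, while the treatment labels give the small interfering RNA alone. Separate cultures are not stated for the 3 replicates, and p-values therefore cover the spread among libraries alone, part or all of which may be technical. A cell line in culture is 1 tumour's descendants, and no DNA-damaging agent is named in the treatment labels.

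Cells mend DNA through several pathways that divide the work by lesion. Homologous recombination copies a broken duplex from its sister chromatid, and end joining ligates broken ends directly. The Fanconi pathway unhooks crosslinks between the strands, mismatch repair corrects copying errors, base excision repair removes small damaged bases, and nucleotide excision repair removes bulky adducts. ATM and ATR are the kinases that sense breaks and stalled replication forks, and CHEK1 and CHEK2 carry their signal to the cell cycle. Many of these proteins are large scaffolds or kinases, so their mRNAs span a wide range of lengths.

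Values are in FPKM: fragments divided by the length of the gene in kilobases and by the number of fragments counted in that library. Depth was between 22198121 and 27234880 counted fragments in siGFPT2 libraries and between 21899321 and 24493042 in siNC libraries. Epithelial and carcinoma markers fitted the label: EPCAM, KRT7, KRT8, KRT18, KRT19, CDH1, EGFR and MUC1 summed to 1521 to 1905 FPKM in siGFPT2 and 1473 to 2106 in siNC. The lung lineage factor NKX2-1 was at 27.7 to 31.7 FPKM in siGFPT2 and 28.3 to 31.7 in siNC, while SCGB1A1, a club cell marker, was listed at 0 in every library. Markers of other cells were low: 5 fibroblast genes summed to 9.12 to 12.2 FPKM in siGFPT2 and 8.74 to 10.7 in siNC, and 4 endothelial genes to 0.62 to 0.954 in siGFPT2 and 0.594 to 0.744 in siNC. GFPT2 itself was at 8.94, 7.58 and 8.72 FPKM in siGFPT2 libraries 1 to 3, against 10.1, 9.30 and 8.28 in siNC libraries 1 to 3. These values overlapped, with a log2 fold change of -0.13 ± 0.13 (SE), and an exact two-sided permutation test gave p = 0.4, where 0.1 is the smallest possible. The target gene thus gave no check of the labels, which are used as given. Before any comparison, 2 libraries have to be named: siGFPT2 replicate 2 and siNC replicate 3 stood apart from the other libraries of their own groups, with lower levels of long mRNAs and higher levels of short ones. The plot of fold changes gives every tested repair gene with all 6 libraries and without these 2.

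All 50 repair genes gave fragments in every library. Of them, 45 reached a mean of 1 FPKM over the 6 libraries and entered the test. The plot of levels by gene shows a range from XRCC6 at a mean of 163 FPKM to ERCC5 at 0.223. The tested members had a median level of 5.67 FPKM, close to the 5.42 FPKM of all 12896 features tested.

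**Figure D1:**
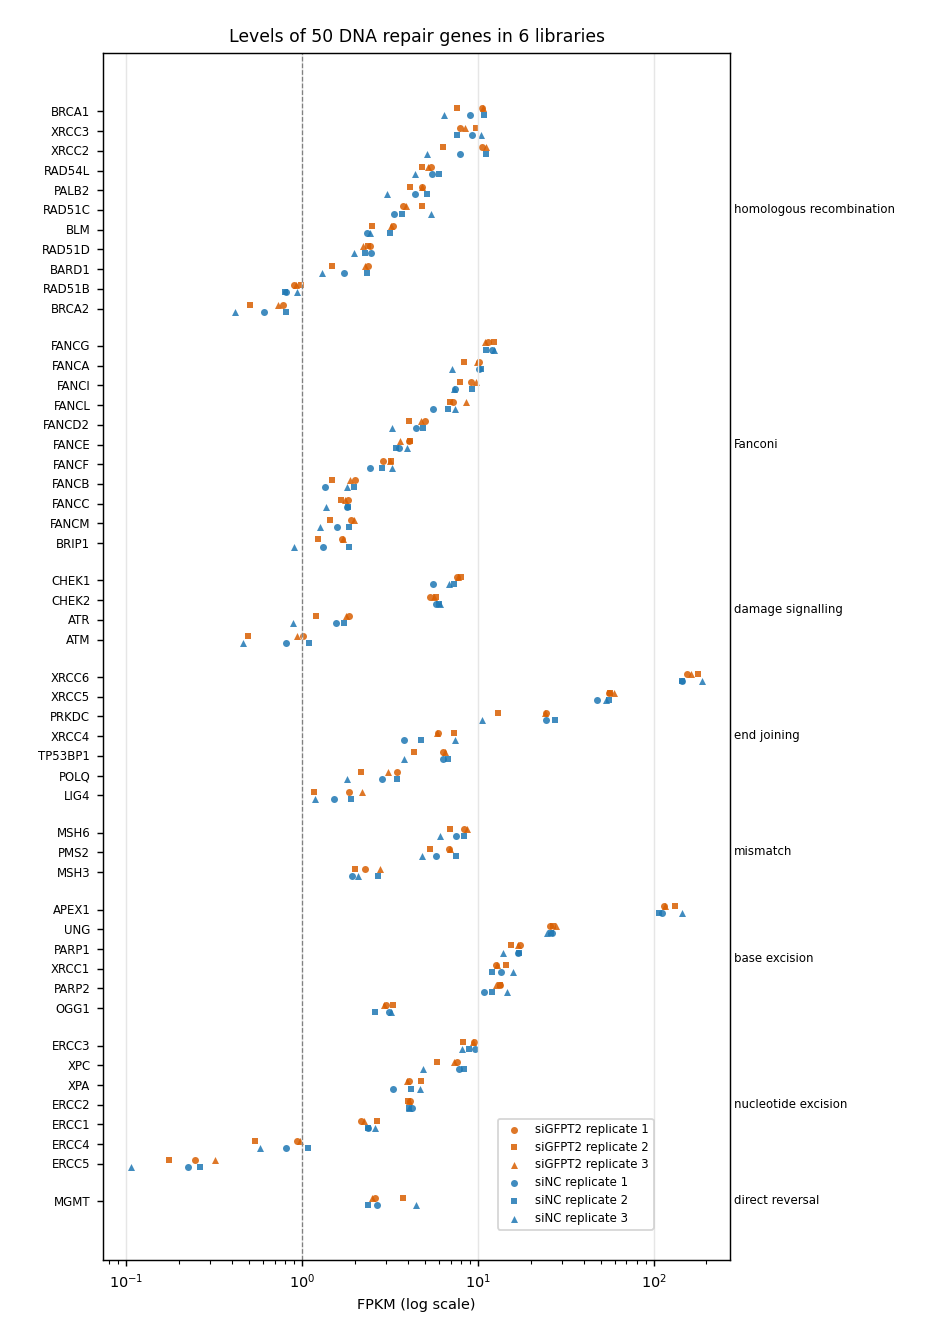
FPKM of each of the 50 repair genes on a log axis, with siGFPT2 libraries in orange above siNC libraries in blue and 1 symbol for each replicate number; the dashed line marks 1 FPKM. XRCC6, APEX1 and XRCC5 lead the set, and the squares of siGFPT2 replicate 2 and triangles of siNC replicate 3 lie to the left for PRKDC, ATM and BRCA1 and to the right for MGMT, RAD51C and XRCC6.

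None of the tested repair genes differed between siGFPT2 and siNC by the test used. In bulk RNA, less RNA per cell and fewer cells that express a gene cannot be told apart. In limma's fit over 12896 features, 0 were called at an adjusted p of 0.05, a share of 0%, and 0 of the 45 tested members were called. No member had an unadjusted p under 0.05, against 84 features in the whole fit; limma-voom on recovered reads also called 0 and had 0 members at that level. The adjusted p of every tested member was 0.9999. Log2 fold changes of the members lay between -0.09 and 0.31, with a median of 0.07 beside 0.03 over all features tested. Fold changes were above 0 for 37 members and below 0 for 8, which is 82.2% above 0 beside 61.4% of all features. Centring each library on its median gene lowers every fold change alike, by 0.05, and gave 29 members above 0 and 16 below (64.4%), beside 44.0% of all features above 0. Without siNC replicate 3 there were 23 above and 22 below (51.1%), beside 52.8% of all features. Without both libraries that stood apart there were 32 above and 13 below (71.1%), with a median of 0.07, beside 57.0% of all features. The sign turned for 7 members in that fit: RAD51D, FANCA, FANCC, TP53BP1, PRKDC, XPC and MGMT. The 95% intervals excluded a 2-fold change in either direction for 43 of 45 members, beside 11962 of 12896 features. Among the members, the exceptions were XRCC2, with an upper bound of 1.01, and PRKDC, with an upper bound of 1.02.

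**Figure D2:**
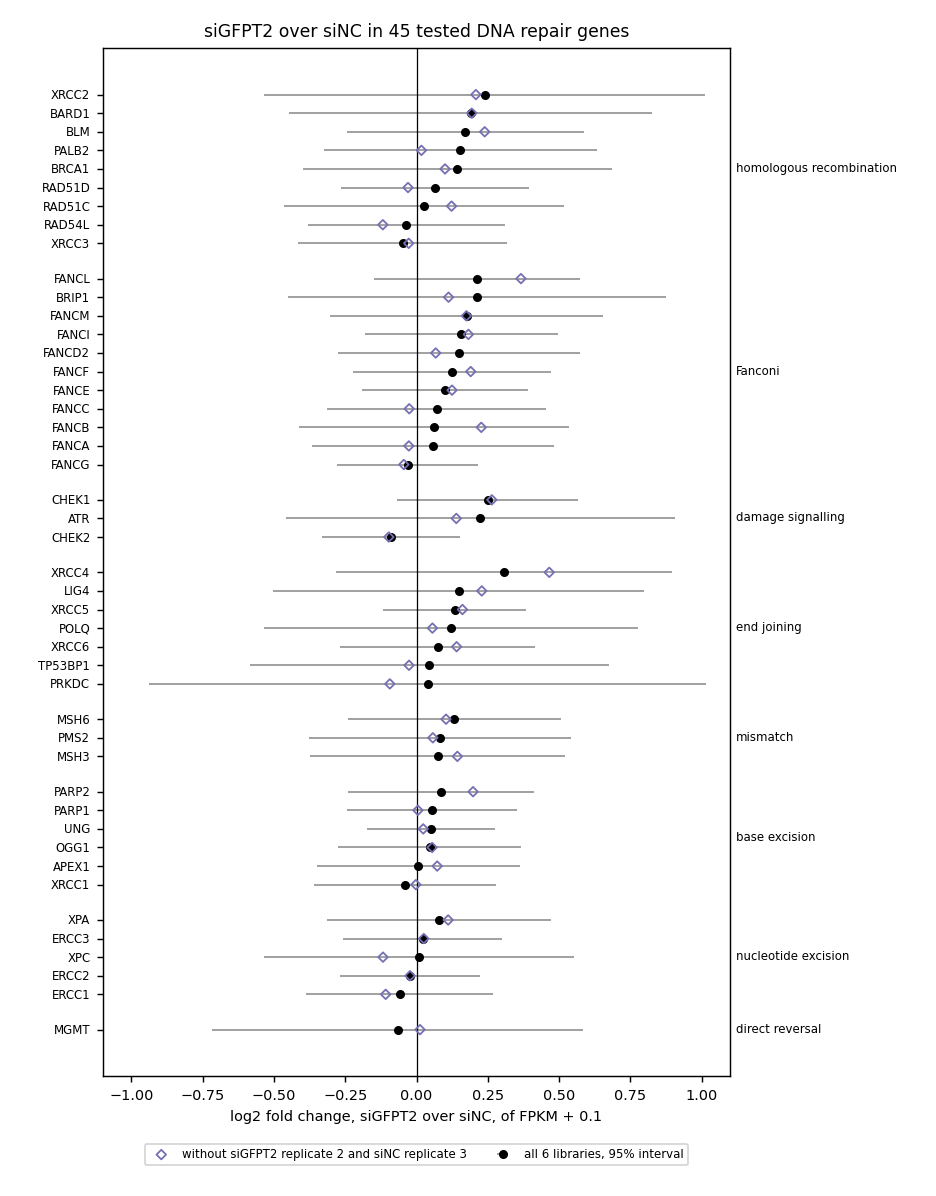
Log2 fold change of siGFPT2 over siNC for the 45 tested repair genes by pathway, with black points and grey 95% intervals from all 6 libraries and open diamonds for the 4 libraries left without siGFPT2 replicate 2 and siNC replicate 3. Every interval crosses 0, from -0.94 to 1.02 for PRKDC and from -0.17 to 0.28 for UNG.

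Homologous recombination was measured by 11 genes, of which 9 were tested. BRCA1, which recruits the recombination machinery to breaks, had the highest FPKM, at 10.5, 7.58 and 10.7 FPKM in siGFPT2 libraries 1 to 3, against 8.99, 10.9 and 6.45 in siNC. The lowest value of each group came from the library that stood apart, and the groups overlapped. Its log2 fold change was 0.14 (95% interval -0.40 to 0.68). BLM, the helicase that dissolves recombination intermediates, had the smallest unadjusted p of the pathway, at 0.362, with 3.28, 2.51 and 3.20 FPKM in siGFPT2 and 2.34, 3.17 and 2.45 in siNC. Here too the groups overlapped, since siNC replicate 2 lay above siGFPT2 replicate 2.

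XRCC2, a factor of strand exchange, had the highest fold change of the pathway and the widest spread. It was at 10.5, 6.38 and 11.2 FPKM in siGFPT2 and 7.92, 11.1 and 5.16 in siNC, a log2 fold change of 0.24 (-0.53 to 1.01). XRCC3, another factor of strand exchange, had the lowest, at -0.05 (-0.41 to 0.32), with 7.92, 9.82 and 8.52 FPKM in siGFPT2 and 9.23, 7.60 and 10.4 in siNC. These 2 genes ran in opposite order across the libraries: siGFPT2 replicate 2 and siNC replicate 3 were lowest in their groups for XRCC2 and highest for XRCC3. XRCC3 is uncertain, because exons of KLC1 on the opposite strand cover 76.7% of its exon length and strand-specific counting is not stated. The remaining tested genes were PALB2, which bridges BRCA1 and BRCA2, its log2 fold change at 0.15, the BRCA1 partner BARD1 at 0.19, RAD51C at 0.03 and RAD51D at 0.06, which also act in strand exchange, and the motor protein RAD54L at -0.04. BRCA2, a mediator of strand exchange, stayed under the filter at 0.782, 0.509 and 0.730 FPKM in siGFPT2 and 0.612, 0.815 and 0.419 in siNC. RAD51B was the highest of the genes under the filter, at 0.907, 0.987 and 0.928 FPKM in siGFPT2 and 0.810, 0.800 and 0.939 in siNC.

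The promoter of XRCC2 is printed with those of FANCD2 and XRCC6 because each holds a run of letters known as a binding motif of E2F factors, which drive genes of DNA replication. RefSeq windows (GRCh38.p14) of 300 bases, 250 before the start and 50 after it, were found by symbol for 47 of the 50 genes. The motif was searched on both strands as TTTCCCGC, TTTGGCGC or TTTCGCGC. It was present in 7 of 67 windows of the repair genes (10.4%) and in 2.74% of all 35116 windows. The genes with it were FANCC, FANCD2, MSH3, MSH6, XPC, XRCC2 and XRCC6. The cyclic AMP response element TGACGTCA was found in 8 of 67 windows of the repair genes (11.9%) and in 1.85% of all windows. The genes with it were LIG4, PARP2, PMS2, RAD51C and XRCC2. These matches describe letters and not bound sites. Capitals mark the motifs; the windows are chr7:152676092-152676391 on the minus strand, chr3:10026187-10026486 on the plus strand and chr22:41621045-41621344 on the plus strand, in the order printed.
XRCC2: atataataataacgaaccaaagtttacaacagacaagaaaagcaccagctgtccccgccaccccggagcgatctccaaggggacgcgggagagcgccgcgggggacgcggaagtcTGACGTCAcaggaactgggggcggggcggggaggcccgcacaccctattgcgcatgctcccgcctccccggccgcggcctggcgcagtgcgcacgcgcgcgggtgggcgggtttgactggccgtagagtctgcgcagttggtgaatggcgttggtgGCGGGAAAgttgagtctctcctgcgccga
FANCD2: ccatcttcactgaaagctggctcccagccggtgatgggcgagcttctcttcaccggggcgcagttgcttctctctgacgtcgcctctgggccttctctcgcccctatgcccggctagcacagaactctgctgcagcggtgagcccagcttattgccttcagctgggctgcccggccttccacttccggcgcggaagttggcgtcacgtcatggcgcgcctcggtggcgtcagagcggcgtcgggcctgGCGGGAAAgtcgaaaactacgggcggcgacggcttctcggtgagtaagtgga
XRCC6: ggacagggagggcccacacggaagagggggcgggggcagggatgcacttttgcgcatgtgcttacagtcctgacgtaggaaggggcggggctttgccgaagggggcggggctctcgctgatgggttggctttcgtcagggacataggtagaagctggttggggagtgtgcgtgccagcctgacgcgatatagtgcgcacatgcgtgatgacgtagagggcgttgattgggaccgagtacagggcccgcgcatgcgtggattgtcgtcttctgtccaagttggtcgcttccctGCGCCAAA
In the windows, the E2F motif lies at bases 272 to 279 of XRCC2, 249 to 256 of FANCD2 and 293 to 300 of XRCC6, and the cyclic AMP element at bases 116 to 123 of XRCC2. The genes that share the motif did not all share a direction across the libraries. XRCC2, FANCD2, FANCC, MSH6 and XPC were lowest within their groups in siGFPT2 replicate 2 and siNC replicate 3. So were 48.9% of the tested members. MSH3 was lowest in siGFPT2 replicate 2 and siNC replicate 1, while XRCC6 was highest in siGFPT2 replicate 2 and siNC replicate 3.

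All 11 genes of the Fanconi pathway were tested, with fold changes above 0 for 10 and below 0 for 1. FANCG, a subunit of the core ubiquitin ligase complex, had the highest FPKM and was the only member below 0. It was at 11.4, 12.3 and 11 FPKM in siGFPT2 and 12.1, 11.1 and 12.4 in siNC, a log2 fold change of -0.03 (-0.28 to 0.22). FANCL, the catalytic ubiquitin ligase of that complex, had the highest fold change and the smallest unadjusted p, 0.206. Its levels were 7.25, 6.97 and 8.61 FPKM in siGFPT2 and 5.53, 6.74 and 7.45 in siNC, so that 2 siNC libraries lay below the siGFPT2 range and 1 within it. On the log2 scale the difference was 0.21 (-0.15 to 0.58). Without the libraries that stood apart it was 0.37 (0.04 to 0.69). The unadjusted p of limma was then 0.0340 and its adjusted p 0.720. FANCL is also uncertain, because exons of VRK2 on the opposite strand cover 18.7% of its exon length. The ubiquitinated pair FANCD2 and FANCI, which mark the crosslink, had log2 fold changes of 0.15 and 0.16, at means of 4.62 ± 0.478 and 8.91 ± 0.944 FPKM in siGFPT2 and 4.20 ± 0.837 and 8.0 ± 1.07 in siNC (SD, n = 3). Log2 fold changes of the other core complex genes were 0.06 for FANCA, 0.06 for FANCB, 0.07 for FANCC, 0.10 for FANCE and 0.12 for FANCF. The translocase FANCM had 0.18 and the helicase BRIP1 0.21. BRIP1 had the lowest deposited FPKM of the tested members, at 1.69, 1.23 and 1.72 FPKM in siGFPT2 and 1.33, 1.85 and 0.898 in siNC.

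Among the kinases of damage signalling, CHEK1 came closest to a difference. It was at 7.64, 8.06 and 7.75 FPKM in siGFPT2, against 5.55, 7.36 and 6.90 in siNC, and every siGFPT2 library lay above every siNC library. The log2 fold change was 0.25 (-0.07 to 0.57), the unadjusted p was 0.105 in limma, the smallest of all members, and it was 0.26 (-0.08 to 0.61) without the libraries that stood apart. Without siNC replicate 1, the lowest library for CHEK1, it was 0.13. CHEK2 went the other way with groups that did not overlap, at 5.34, 5.75 and 5.66 FPKM in siGFPT2 and 5.78, 6.01 and 6.06 in siNC, and a log2 fold change of -0.09 (-0.33 to 0.15). These were the only members whose groups did not overlap, 1 higher and 1 lower of 45, beside 2.16% of all features higher and 1.36% lower. ATR, the kinase of stalled forks, was at 1.84, 1.21 and 1.79 FPKM in siGFPT2 and 1.56, 1.72 and 0.893 in siNC, with a log2 fold change of 0.22 (-0.46 to 0.91). ATM, the kinase of broken ends, did not reach the filter. Its levels were 1.01, 0.493 and 0.931 FPKM in siGFPT2 and 0.810, 1.1 and 0.460 in siNC, so that siGFPT2 replicate 2 and siNC replicate 3 held less than any other library.

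End joining held the most abundant member of the set and the one with the highest fold change. XRCC6, the Ku70 subunit that caps broken ends, was at 155, 180 and 164 FPKM in siGFPT2 and 144, 145 and 188 in siNC. XRCC5, its Ku80 partner, was at 55.4, 56.4 and 59.6 FPKM in siGFPT2 and 47.6, 55.5 and 53.4 in siNC, with the smallest unadjusted p of the pathway, 0.25. The log2 fold changes were 0.07 (-0.27 to 0.42) for XRCC6 and 0.13 (-0.12 to 0.39) for XRCC5, and for both the groups overlapped. Per kilobase, then, the mRNA of the Ku70 subunit was the more abundant of the pair in every library.

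XRCC4 (chromosome 5, bases 83077498 to 83353787, plus strand, by the GENCODE 29 annotation of GRCh38), the scaffold that holds the ligase in end joining, had the highest log2 fold change of all members, 0.31 (-0.28 to 0.90). It was at 5.91, 7.33 and 5.88 FPKM in siGFPT2, against 3.78, 4.74 and 7.38 in siNC. The overlap came from siNC replicate 3, which was above all siGFPT2 libraries. Without siGFPT2 replicate 2 and siNC replicate 3 it became 0.47 (0.15 to 0.78). The unadjusted p of limma was then 0.0103 and its adjusted p 0.720. In that fit 2 members (XRCC4 and FANCL) and 751 of 12896 features had an unadjusted p under 0.05, and 0 features were called. Without siNC replicate 3 alone the value for XRCC4 was 0.57, and without siNC replicate 1 alone it was 0.10.

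PRKDC (chromosome 8, bases 47773108 to 47960183, minus strand, by the same annotation), the kinase that Ku recruits to ends, has the longest main mRNA of the tested members, 13509 bases. It was at 24.4, 13.1 and 24.0 FPKM in siGFPT2 and 24.4, 27.4 and 10.6 in siNC. In each group the library that stood apart was far below the others, and the highest library was 2.59 times the lowest. Its log2 fold change was 0.04 (-0.94 to 1.02) with all libraries, -0.39 without siNC replicate 3, 0.33 without siGFPT2 replicate 2 and -0.09 without both. TP53BP1, which steers breaks toward end joining, was at 6.31, 4.33 and 6.53 FPKM in siGFPT2 and 6.35, 6.74 and 3.79 in siNC (log2 fold change 0.05 with all libraries and -0.03 without those that stood apart). LIG4, the ligase, had a log2 fold change of 0.15, and POLQ, the polymerase of an alternative end joining route, 0.12.

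The mismatch repair genes were MSH6, MSH3 and PMS2, with all 3 fold changes above 0. MSH6, which recognises base mismatches, led in level, fold change and unadjusted p (0.427), with 8.32, 6.97 and 8.72 FPKM in siGFPT2 and 7.50, 8.37 and 6.09 in siNC. Its log2 fold change was 0.13 (-0.24 to 0.51), and the groups overlapped. MSH3, which recognises larger loops, had the lowest fold change, 0.07, at 2.30, 2.00 and 2.79 FPKM in siGFPT2 and 1.93, 2.69 and 2.09 in siNC. PMS2, the endonuclease subunit, had a log2 fold change of 0.08 at means of 6.36 ± 0.90 FPKM in siGFPT2 and 6.06 ± 1.35 in siNC (SD, n = 3). Its values are uncertain, since 15 features of the table carry names of PMS2 copies and 5 of them had a mean of at least 1 FPKM.

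The 6 base excision repair genes had a median level of 14.9 FPKM and a median mRNA of 2146 bases, beside 5.67 FPKM and 3828 bases for all tested members. APEX1, the endonuclease that cuts at abasic sites, was at 115, 133 and 116 FPKM in siGFPT2 and 111, 108 and 145 in siNC, a log2 fold change of 0.01 (-0.35 to 0.36). UNG, which removes uracil, was among the steadiest members, at 25.8, 26.7 and 27.7 FPKM in siGFPT2 and 26.6, 26.0 and 24.8 in siNC. PARP2, a sensor of strand breaks, had the highest fold change and the smallest unadjusted p of the pathway, 0.09 (-0.24 to 0.41), where the unadjusted p of limma was 0.551. The siGFPT2 libraries, at 13.4, 13.4 and 12.8 FPKM, lay inside the range of the siNC libraries, at 10.8, 12 and 14.8. XRCC1, the scaffold of strand break repair, had the lowest log2 fold change, -0.04, with 12.7, 14.6 and 12.8 FPKM in siGFPT2 and 13.5, 12.1 and 15.8 in siNC. PARP1, the main sensor of strand breaks, was at 17.3, 15.4 and 17.0 FPKM in siGFPT2 and 17.0, 17.2 and 13.8 in siNC (log2 0.05), and OGG1, which removes oxidised guanine, had a log2 fold change of 0.05.

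Nucleotide excision repair had 5 of its 7 genes tested, and their fold changes lay close to 0. ERCC3, a helicase of the TFIIH complex, was the most abundant, at 9.49, 8.25 and 9.41 FPKM in siGFPT2 and 9.61, 8.97 and 8.18 in siNC, a log2 fold change of 0.02 (-0.26 to 0.30). XPA, the damage verifier, has the shortest main mRNA of the tested members, 1417 bases. It was at 4.05, 4.75 and 3.97 FPKM in siGFPT2 and 3.29, 4.17 and 4.70 in siNC, with the highest fold change of the pathway, 0.08, and its smallest unadjusted p, 0.646. ERCC1, a subunit of the nuclease that cuts beside the lesion, had the lowest, -0.06, at 2.16, 2.67 and 2.25 FPKM in siGFPT2 and 2.38, 2.38 and 2.60 in siNC. ERCC2, the other TFIIH helicase, was the steadiest member of the whole set, with a highest library 1.06 times the lowest. XPC, the damage sensor, had a log2 fold change of 0.01 with all libraries and -0.12 without those that stood apart. ERCC4, the nuclease partner of ERCC1, did not reach the filter, at 0.936, 0.542 and 0.978 FPKM in siGFPT2 and 0.816, 1.08 and 0.580 in siNC. ERCC5, the nuclease on the other side of the lesion, was the lowest member, at 0.247, 0.176 and 0.318 FPKM in siGFPT2 and 0.225, 0.265 and 0.107 in siNC, from 29 to 78 fragments. Its level is uncertain: the read-through gene BIVM-ERCC5 shares 63.2% of its exon length on the same strand and was listed at 0 in all libraries. MGMT, which takes methyl groups off guanine directly, was at 2.60, 3.78 and 2.49 FPKM in siGFPT2 and 2.69, 2.36 and 4.43 in siNC, a log2 fold change of -0.07 (-0.72 to 0.58), and of 0.01 without the libraries that stood apart. Its highest library in each group was the library that stood apart.

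The direction in which members deviated in each library went with the length of their mRNA. The main mRNA of a gene was taken as its longest principal transcript in GENCODE 29, and the tested members ranged from 1417 to 13509 bases with a median of 3828, beside a median of 2745 bases over all features. Deviations from the mean of the 6 libraries were regressed on log2 length. In siGFPT2 replicates 1, 2 and 3 the slope over the members was 0.12, -0.18 and 0.10 log2 units for each doubling of length, and in siNC replicates 1, 2 and 3 it was 0.12, 0.17 and -0.33. The slopes over all features had the same signs and were smaller, at 0.04, -0.08 and 0.04 in siGFPT2 and 0.05, 0.07 and -0.12 in siNC. That line spans a wider range of lengths, from 42 to 43816 bases. At like lengths the sets were similar. Over 5 kb, the median deviations in siGFPT2 replicate 2 and siNC replicate 3 were -0.19 and -0.48 for members and -0.25 and -0.41 for all features. Up to 3 kb they were 0.12 and 0.13 for members and 0.10 and 0.15 for all features. The points share libraries and genes are not independent replicates, so these slopes are descriptions.

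**Figure D3:**
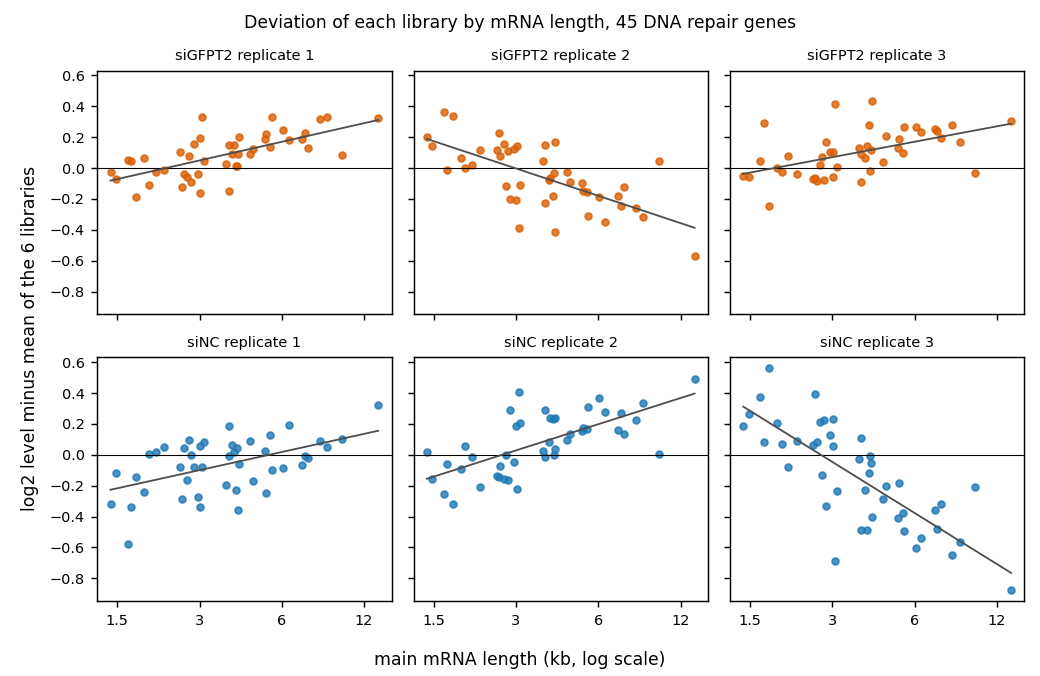
Deviation of each library from the mean of the 6 libraries, in log2 units of FPKM + 0.1, against main mRNA length on a log axis for the 45 tested repair genes, with siGFPT2 libraries in the upper row and siNC libraries in the lower row and a fitted line in each panel. The line falls with length in siGFPT2 replicate 2 and siNC replicate 3 and climbs in the other 4 libraries.

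The same pattern stood in the order of the libraries within each group. Among 13 members with a main mRNA over 5 kb, siGFPT2 replicate 2 was the lowest siGFPT2 library for 12, all but RAD51D, and siNC replicate 3 was the lowest siNC library for 12, all but BLM. Over all features of that length the shares were 90.0% and 84.1%. Among 17 members up to 3 kb, siGFPT2 replicate 2 was the highest siGFPT2 library for 13 and siNC replicate 3 the highest siNC library for 14, beside 4195 and 4306 of 6900 features. The ratio of the highest to the lowest library had a median of 1.69 for the long members, 1.38 for those over 3 and up to 5 kb and 1.33 for the short ones. Over all features of these lengths the medians were 1.66, 1.37 and 1.45, with no steady rise by length. Over all 50 genes the ratio was highest for ERCC5, at 2.97 from few fragments. PRKDC followed with 2.59, ATM with 2.39 and XRCC2, whose mRNA has 3067 bases, with 2.17. Short members also reached high ratios, at 1.95 for XRCC4 and 1.87 for MGMT. GC content divided the libraries differently: over the 45 members, which share their libraries, the Spearman correlation of deviation with the GC content of the mRNA was -0.57, 0.39 and -0.71 in siGFPT2 replicates 1 to 3 and 0.47, -0.47 and 0.36 in siNC replicates 1 to 3. Longer mRNAs had less GC (rho = -0.31). The part of RNA quality or library making in this was not tested.

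Group fold changes depended on length less clearly. All 13 members over 5 kb had a fold change above 0 with a median of 0.14, beside 73.5% of all features of that length and a median of 0.06. Without siGFPT2 replicate 2 and siNC replicate 3, 9 of these 13 were above 0 with a median of 0.10. Over all features of that length it was then 1328 of 2439, with a median of 0.01. The slope of fold change on log2 length over the 45 members was 0.03 with all libraries and -0.03 without both, and it ran from -0.13 without siNC replicate 3 to 0.12 without siGFPT2 replicate 2.

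The order of levels among the members rested on the gene length behind the FPKM. That length can be read from the steps of the values, and for the 50 genes it was 0.98 to 4.65 times the main mRNA, with a median of 1.46 and 19 genes over 2. PARP1 had the largest ratio: the FPKM were computed over 18399 bases and the main mRNA has 3958. Per kilobase of main mRNA its mean would be 75.7 in place of 16.3 FPKM, which moves it from the sixth place in the set to the fourth. OGG1 would move from 3.02 to 11.9, MGMT from 3.06 to 11.3, ATR from 1.5 to 4.96 and ERCC3 from 8.99 to 27.5. The leading genes XRCC6, APEX1 and XRCC5 kept their places, at 195, 154 and 79.4. Within other pathways the leading gene in deposited FPKM lost its place: BRCA1, at 11.8, would lie below XRCC3 at 22.2 and XRCC2 at 13.7. FANCG, at 15.8, would lie below FANCI at 21.3 and FANCA at 16.7, CHEK1 at 9.72 below CHEK2 at 13.2, and MSH6 at 11.2 below PMS2 at 13.5. The lowest tested member would be LIG4 at 1.72, and BRIP1 would be at 4.71. These rescaled levels assume that all counted fragments came from the main mRNA, so they are upper values where other transcripts contribute. Fold changes between groups do not depend on this length, apart from the weight of the pseudocount.

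**Figure D4:**
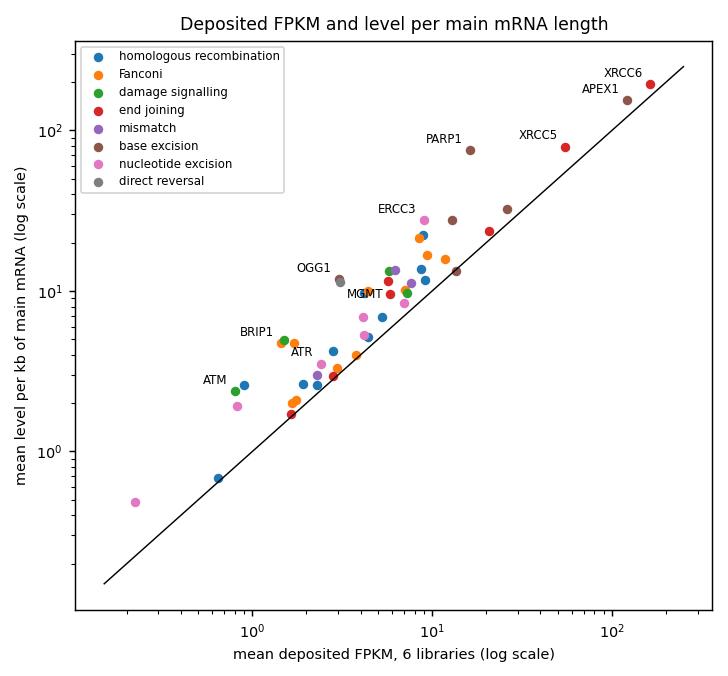
Mean level rescaled to the length of the main mRNA (vertical axis) against mean deposited FPKM over the 6 libraries (horizontal axis), for the 50 repair genes coloured by pathway, both on log axes, with a line of equality. PARP1, OGG1 and MGMT lie farthest above the line.

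A wider list of 106 repair genes outside the set gave the same count of 0 called genes. Of them 95 were tested, 0 had an unadjusted p under 0.05 in limma or in limma-voom, and fold changes were above 0 for 73 and below 0 for 22, with a median of 0.08. Without siGFPT2 replicate 2 and siNC replicate 3, fold changes were above 0 for 71 and below 0 for 24, with a median of 0.12. In that fit 5 (RPA3, SFR1, GTF2H1, MNAT1 and ALKBH3) had an unadjusted p under 0.05, beside 751 of 12896 features, and 0 were called. The smallest unadjusted p above 0 belonged to SHLD1, a shieldin subunit that protects broken ends, at 1.25 ± 0.132 FPKM in siGFPT2 and 0.963 ± 0.148 in siNC (SD, n = 3), a log2 fold change of 0.35 (-0.09 to 0.78). The TFIIH subunit GTF2H1 followed with 0.19 and the recombination factor SFR1 with 0.35. Without the libraries that stood apart SFR1 had 0.52, where the unadjusted p of limma was 0.00818 and its adjusted p 0.720. Below 0, the polymerase POLL had -0.11 and the nuclease MUS81 -0.10. The group medians ran from 0.04 for end joining to 0.14 for translesion synthesis, apart from the single mismatch gene MLH3 at 0.19.

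Many repair genes are transcribed around S phase, so markers of proliferation were set beside them. The summed level of 15 S phase genes was 749, 797 and 741 FPKM in siGFPT2 and 795, 715 and 776 in siNC, and that of 10 mitotic genes was 502, 495 and 508 FPKM in siGFPT2 and 466, 492 and 488 in siNC. The S phase sums overlapped between the groups, and every siGFPT2 library lay above every siNC library for the mitotic sum. That separation was narrow, at 495 FPKM in siGFPT2 replicate 2 against 492 in siNC replicate 2, and 0 of the 10 mitotic genes were called. The summed level of the 50 repair genes, led by XRCC6 and APEX1, was 614, 629 and 631 FPKM in siGFPT2 and 572, 599 and 632 in siNC. The part of proliferation in the repair gene levels was not tested.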

How the data were processed

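The authors deposited 1 table of FPKM per gene and library; the tools named, with no order, are DESeq2, featureCounts and HISAT2, per the submitters' processing notes. For the genome build and annotation, the sources used here give nothing. Symbols came from a table of Ensembl gene names. The members and the lists of other genes were chosen with earlier results of these data known. The comparison used limma 3.58.1 in R 4.3.3 (lmFit, then eBayes with a trend; two-sided; no term besides group) on log2(FPKM + 0.1), for the 12896 features whose mean reached 1 FPKM, with Benjamini-Hochberg adjustment over them and a threshold of 0.05. The pseudocount understates the fold changes of low genes. Depth and gene length were read from the FPKM steps: 36980 of 36981 features above 0 gave whole reads within 0.01 reads, 20703 with the exon length of GENCODE 29 (GRCh38) and the rest with the smallest length that did, for repair genes at least 0.75 of the main mRNA. These reads served for fragment numbers and limma-voom, scaled by library total. Values were given in full for the most abundant gene of each pathway, those with the smallest p and with the highest and lowest fold change, and the longest and shortest mRNA; the other repair genes named were the 3 with the smallest p in each direction, of which 1 is not reported here. The fit was also run on simulated counts that held no length trend between libraries, so that run does not measure detection in these data.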

Additional observations from a re-analysis of the deposited data

How the results depend on the processing

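Over the 17 other fits, 0 repair genes and 0 of the other repair genes were called, and the log2 fold change of GFPT2 stayed below 0, between -0.21 and -0.06. Leaving out each library in turn gave 0 called members each time, a members' median between 0.00 and 0.16, a GFPT2 value between -0.21 and -0.06 and a slope of fold change on length between -0.13 and 0.12. With the replicate number as a block the members' median was 0.07 and their smallest unadjusted p in limma 0.201. Deviations of samples with the same number correlated at 0.47, -0.72 and -0.57 over 12896 features, for numbers 1, 2 and 3. Between siGFPT2 replicate 2 and siNC replicate 3 the correlation was 0.79. These 2 libraries weigh on all of the values, which therefore cannot tell whether the numbers pair the libraries. The sign of a single member's fold change, for which no member was called, turned for 22 of 45 without siNC replicate 3, for 8 with the length trend removed and for 0 with another pseudocount. Without siNC replicate 3, XRCC4 alone of the 45 members had an unadjusted p of limma under 0.05 (0.00994), beside 520 of 12896 features. With each library's length slope as a covariate it was again XRCC4 alone (0.0356), beside 674 of 12896 features. With 3 libraries a group, the median standard error of a member was 0.16 log2 units, and 0.23 for those over 5 kb. The part of this spread in the absence of calls was not tested. Over all 12896 features, log2 fold changes ran from -3.21 to 3.13, yet the smallest adjusted p of limma was 0.9999. The count of 0 calls by itself therefore does not bound the size of a change, for short or long mRNAs.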

Other observations

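Exons of other annotated genes lay on over 10% of the exon length of 14 of the 50 repair genes. TUBGCP4 covered 28.7% of TP53BP1, CD3EAP 28.6% of ERCC1, LRRC41 25.1% of RAD54L, CAMK1 25.0% of OGG1 and ZNF276 23.6% of FANCA, each from the opposite strand, and the counting rule for such reads is not stated. BRCA1P1, a copy of part of BRCA1, had a mean of 2.53 FPKM.

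Other promoter motifs were counted in the same windows. The GC box GGGCGG was present in 71.6% of the windows of the repair genes and 45% of all windows. For the CCAAT box the shares were 46.3% and 34.6%, and for the ETS motif CCGGAAGT 11.9% and 4.14%. The ETS motif was found in windows of BRCA2, ERCC1, ERCC3, FANCD2, LIG4, OGG1, PALB2 and POLQ.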
